A study of Homo sapiens with 6 samples.

Results

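A set of 7 genes of the basement membrane were followed in cultured human dermal fibroblasts with and without knockdown of the zinc-finger gene ZNF469. They were taken by name and are the collagen genes COL4A1, COL4A2, COL4A5, COL15A1 and COL18A1 and the nidogen genes NID1 and NID2, which make 7 of the 21151 genes in the deposited table. The cells were of the CCD-1064Sk line, a fibroblast line from skin, and every library came from cells that carried a short-hairpin RNA (an RNA that directs the breakdown of a matching transcript). The hairpin was a control in 3 libraries (shControl, labelled wild type) and was directed at ZNF469 in the other 3 (shZNF469). The libraries of a group are described as technical replicates, so p-values below measure the spread between libraries, not between independent cultures, and the labels do not state how many hairpins were used.

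The basement membrane is a thin sheet of matrix that underlies epithelia and endothelium and surrounds muscle, fat and nerve cells. Its scaffold is a network of type IV collagen, whose chains wind into triple helices of fixed composition, the commonest being built from the chains of COL4A1 and COL4A2. Laminin forms another network, and the nidogens bind to both laminin and type IV collagen. Collagens XV and XVIII are collagens with a proteoglycan character found in the zone around basement membranes, and endostatin is cut from the C-terminal end of collagen XVIII. Dermal fibroblasts make type IV collagen chains and nidogens as well as the fibrillar collagens of the dermis.

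COL4A1 and COL4A2 lie head to head on chromosome 13 and are read in opposite directions from a common stretch of DNA. COL4A1 (ENSG00000187498) spans 110148963 to 110307157 and COL4A2 (ENSG00000134871) 110307284 to 110513209 in RefSeq on GRCh38.p14, which leaves 126 bases between their first bases. In GENCODE 29, used below for overlaps, the spans of both genes leave no gap and share 1422 bases on opposite strands, of which 0 are exonic in both. That stretch is shown because it separates a pair of chains whose transcripts moved apart, and the 250 bases before the first base of NID1 and of NID2 are shown because these relatives, on different chromosomes, did so too. All are RefSeq sequence of GRCh38.p14. The first is the plus strand, the direction in which COL4A2 is read, and the nidogen stretches are the minus strand, the direction in which those genes are read. Capitals mark the GC box (GGGCGG), the CCAAT box (CCAAT) and the CTC box (CCCTNCCCC, a motif named from type IV collagen promoters), each searched on both strands.
COL4A1-COL4A2, chr13:110307158-110307283: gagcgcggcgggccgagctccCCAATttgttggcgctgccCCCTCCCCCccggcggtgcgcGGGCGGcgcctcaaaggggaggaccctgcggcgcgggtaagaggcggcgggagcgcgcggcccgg
NID1, chr1:236065091-236065340: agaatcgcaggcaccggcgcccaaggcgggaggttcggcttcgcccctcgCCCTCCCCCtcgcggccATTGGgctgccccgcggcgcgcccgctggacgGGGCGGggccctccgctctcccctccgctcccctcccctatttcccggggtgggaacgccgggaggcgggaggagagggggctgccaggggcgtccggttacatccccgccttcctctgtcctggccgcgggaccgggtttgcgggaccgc
NID2, chr14:52069060-52069309: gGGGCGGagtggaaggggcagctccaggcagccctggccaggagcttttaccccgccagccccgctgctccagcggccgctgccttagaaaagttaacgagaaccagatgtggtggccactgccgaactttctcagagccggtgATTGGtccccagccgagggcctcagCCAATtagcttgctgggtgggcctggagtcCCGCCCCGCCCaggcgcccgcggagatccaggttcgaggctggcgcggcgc

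The stretch between COL4A1 and COL4A2 was 80.2% G and C and held 1 CCAAT box, 1 CTC box and 1 GC box, none of which overlapped. The NID1 stretch held 1 of each motif, with the CCAAT box on the other strand. The NID2 stretch held 2 CCAAT boxes, one on each strand, and 3 GC boxes, of which 2 overlapped by a base, and no CTC box. TATAAA occurred in none of these 3 stretches. Among the 35116 RefSeq promoter windows (250 bases before to 50 after a first base), 45.0% held a GC box, 34.6% a CCAAT box, 11.4% a CTC box and 11.5% TATAAA. All 7 genes matched this table, COL18A1 with 2 windows. The windows of COL4A1, COL4A2, COL15A1, COL18A1, NID1 and NID2 were 66.3% to 86.7% G and C, against a median of 58.7% over all windows, and that of COL4A5 was 49.3%. A match to these letters is a description and not a binding site.

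Total counts ran from 35417366 to 48298264 per library, and the 7 genes had from 292 (COL4A5) to 73937 (COL4A2) counts. The shControl replicate 2 library stood apart from the other controls on the first principal component (30.5% of the variance), at -10.24 against -55.81 and -51.96, with 46911355 counts against 35417366 and 38149616. It was the highest control in CPM for each of the 7 genes. Without it the falls of COL4A1 (log2 fold change -0.58), COL15A1 (-0.53) and NID2 (-0.44) still passed edgeR's test, and COL18A1 (0.34) did not. ZNF469, the targeted gene, was counted 1416, 2179 and 1494 times in control libraries and 1000, 906 and 750 times in knockdown libraries, and its level fell to 46.2% of the control level (log2 fold change -1.12, SE 0.09, edgeR adjusted p = 0.000873). All 10 markers of fibroblasts were measured, 2 of them, VIM and FBLN1, higher and 3, COL1A1, COL1A2 and COL3A1, lower. Over all 16353 genes tested by edgeR, 4.56% were called higher and 5.34% lower. The summed level of the 10 was 58740 to 62080 CPM (counts scaled for library size) with the control hairpin and 38210 to 40020 CPM after knockdown. For the 3 lower genes, mean CPM (after TMM scaling) went from 20803 to 6170, 19409 to 10622 and 2835 to 1612. VIM went from 7888 to 9857 and FBLN1 from 3085 to 3704, and the remaining markers did not pass in this fit. Without shControl replicate 1 or 2 or shZNF469 replicate 1 none of the 10 was higher, and 1 was higher without shControl replicate 3 or shZNF469 replicate 3. Without shZNF469 replicate 2, 3 were higher. In a bulk culture, fewer cells of a type and less RNA per cell cannot be told apart.

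Length-scaled levels, given by the authors as TPM (a transcript abundance corrected for length), placed COL4A2 far above its partner chains. In the controls COL4A2 was at 553 ± 52.3 TPM, NID1 at 255 ± 16.6, COL4A1 at 236 ± 23.4, NID2 at 172 ± 11.4, COL18A1 at 98.0 ± 10.2, COL15A1 at 33.7 ± 3.14 and COL4A5 at 3.59 ± 0.855 (SD, n = 3). NID1 and COL4A1 were neighbours whose libraries overlapped, and the other steps in this order were larger than the spread. In the knockdown the order was COL4A2 (533 ± 62.1 TPM), NID1 (250 ± 21.6), COL4A1 (151 ± 17.4), NID2 (124 ± 9.18), COL18A1 (122 ± 11.5), COL15A1 (22.3 ± 2.04) and COL4A5 (3.02 ± 0.353). NID2 and COL18A1 were then level within their spread, and NID1 and COL4A1 no longer overlapped. The summed TPM of the 7 genes was 1397, 1440 and 1218 with the control hairpin and 1274, 1275 and 1067 after knockdown, and the groups overlapped. Within that sum the share of COL4A1 went from 17.5 ± 0.220% to 12.5 ± 0.471%, that of COL18A1 from 7.24 ± 0.158% to 10.1 ± 0.133%, and that of COL4A2 from 40.9 ± 0.374% to 44.2 ± 1.27%.

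**Figure D1:**
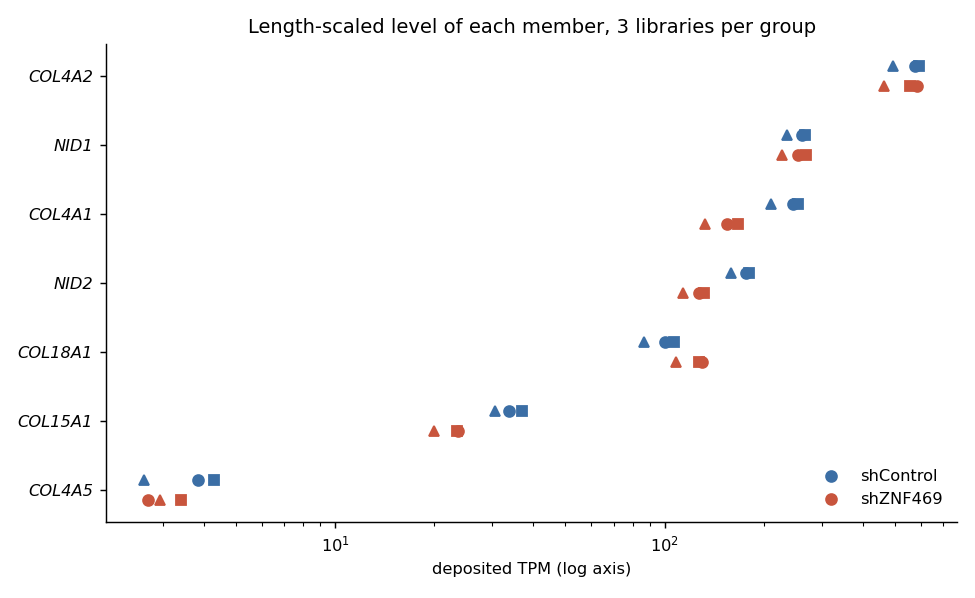
Deposited TPM of each gene (log axis) in the 3 shControl libraries (blue) and the 3 shZNF469 libraries (red), with circles, squares and triangles for replicates 1, 2 and 3. COL4A1, COL15A1 and NID2 lie to the left of their controls in each knockdown library, and COL18A1 lies to the right.

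Of the 7 genes, 3 fell, 1 rose and 3 did not pass the test. COL4A1, COL15A1 and NID2 were 1.54-fold, 1.51-fold and 1.38-fold lower in the knockdown, and COL18A1 was 1.21-fold higher. COL4A2, COL4A5 and NID1 did not pass. Over all 16353 genes tested, 5.34% were called lower, 4.56% higher and 9.9% either way by edgeR's quasi-likelihood test at an adjusted p under 0.05, where the members had 3 lower and 1 higher of 7. The knockdown libraries did not overlap the controls for 4 of the 7 genes, 3 lower and 1 higher, where the shares over all genes tested were 31.4% either way, 15.7% lower and 15.6% higher. The median log2 fold change of the 7 was -0.26, which is the value of COL4A5, and that of all genes tested was 0.0040. The median of the 7 was -0.11 without shControl replicate 2 and -0.41 without shControl replicate 3. The 3 falls were called in each of the 15 alternative analyses, whereas the rise of COL18A1 was called in 5 of them.

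The type IV collagen chains did not move as one. COL4A1, which encodes the alpha-1 chain, was at 666, 689 and 621 CPM (here after TMM scaling) with the control hairpin and at 440, 445 and 401 CPM after knockdown. Each knockdown library was below each control. The means were 659 ± 35.0 and 429 ± 24.3 CPM (SD, n = 3), a log2 fold change of -0.62 (SE 0.06, 95% interval -0.76 to -0.48, edgeR adjusted p = 0.00167), and 65.1% of the control level was left.

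COL4A2, which encodes the alpha-2 chain that shares a helix with the alpha-1 chain, was at 1517, 1569 and 1408 CPM with the control hairpin and at 1519, 1421 and 1349 CPM after knockdown. Its groups overlapped, and the shZNF469 replicate 1 library lay above 2 of the controls. The change came to -0.07 on the log2 scale (SE 0.06, edgeR adjusted p = 0.570). The 95% interval ran from -0.21 to 0.07 and so did not reach the interval of COL4A1.

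COL4A5, on the X chromosome (108439838 to 108697545), encodes the alpha-5 chain, known for Alport syndrome of the kidney. Its level was 10.3, 11.8 and 7.81 CPM with the control hairpin and 7.69, 8.94 and 8.34 CPM after knockdown. The groups overlapped through shControl replicate 3, the lowest of the controls. Its log2 fold change of -0.26 (SE 0.16, 95% interval -0.63 to 0.11, edgeR adjusted p = 0.383) did not pass, and a change as large as that of COL4A1 (-0.62) lay inside this interval. The estimate was -0.11 without shControl replicate 2 and -0.41 without shControl replicate 3, and it passed in neither. Of the remaining type IV chains, COL4A4 was counted 119, 131 and 95 times with the control hairpin and 89, 0 and 90 times after knockdown, and since 1 library is listed at 0 no fold is given. COL4A3 and COL4A6 had no row in the deposited table.

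**Figure D2:**
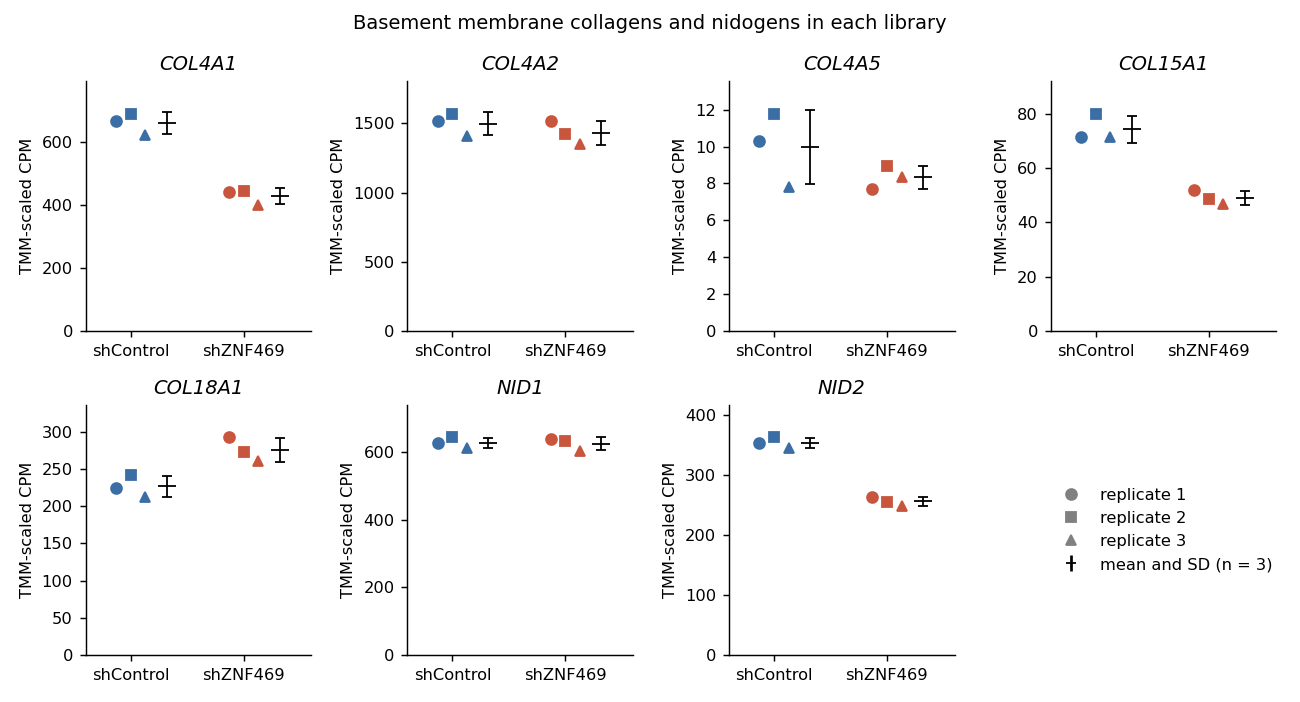
TMM-scaled CPM of each gene (vertical axes from 0) in each library, with shControl in blue, shZNF469 in red, symbols for the replicate number, and bars for the mean and SD of 3 libraries. The groups separate for COL4A1, COL15A1, COL18A1 and NID2 and overlap for COL4A2, COL4A5 and NID1.

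The pair of collagens with a proteoglycan character moved in opposite directions. COL15A1 (ENSG00000204291, chromosome 9, 98943907 to 99070787), which encodes the chain of collagen XV, was at 71.3, 80.0 and 71.2 CPM with the control hairpin and at 51.9, 48.6 and 46.7 CPM after knockdown. All 3 knockdown libraries were lower than the lowest control. The mean fell from 74.2 ± 5.03 to 49.1 ± 2.63 CPM (log2 fold change -0.60, SE 0.07, edgeR adjusted p = 0.00325).

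COL18A1 (ENSG00000182871, chromosome 21, 45405165 to 45513720), the source of endostatin, was at 225, 242 and 213 CPM with the control hairpin and at 293, 272 and 260 CPM after knockdown. Here each knockdown library was above each control. This rise was 0.28 on the log2 scale (SE 0.07, 95% interval 0.12 to 0.44, edgeR adjusted p = 0.0437). This call was lost whichever of the 6 libraries was left out, with an edgeR adjusted p of 0.0551 to 0.151, although the log2 fold change stayed between 0.23 and 0.34. RefSeq gives COL18A1 first bases at 45405165 and 45455522, and a count per gene does not separate them. In GENCODE 29 it shares 1401 exonic bases, 16.4% of its own, with SLC19A1 on the opposite strand, a gene with 218 to 425 counts per library.

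The nidogens split as well. NID1 (ENSG00000116962, chromosome 1, 235975830 to 236065090) encodes nidogen-1, the glycoprotein that ties laminin to type IV collagen. Its level was 627, 645 and 614 CPM with the control hairpin and 639, 635 and 605 CPM after knockdown, and the groups overlapped. The estimate of the change was -0.01 on the log2 scale (SE 0.04, edgeR adjusted p = 0.959), and the 95% interval of -0.11 to 0.10 was the narrowest of the 7.

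NID2 (ENSG00000087303, chromosome 14, 52004809 to 52069059), which encodes the related nidogen-2, was at 353, 363 and 346 CPM with the control hairpin and at 264, 256 and 249 CPM after knockdown. The groups were far apart for their spread, at 354 ± 8.83 and 256 ± 7.58 CPM (log2 fold change -0.47, SE 0.05, 95% interval -0.58 to -0.36, edgeR adjusted p = 0.00184). Its value has a limit. In GENCODE 29, 30.0% of the exonic bases of NID2 are shared with RTRAF on the opposite strand, and the strand setting of the counting is not given in the sources used here. RTRAF had 4258 to 5388 counts per library and a log2 fold change of -0.17 (edgeR adjusted p = 0.127), and its part in the NID2 counts was not tested.

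**Figure D3:**
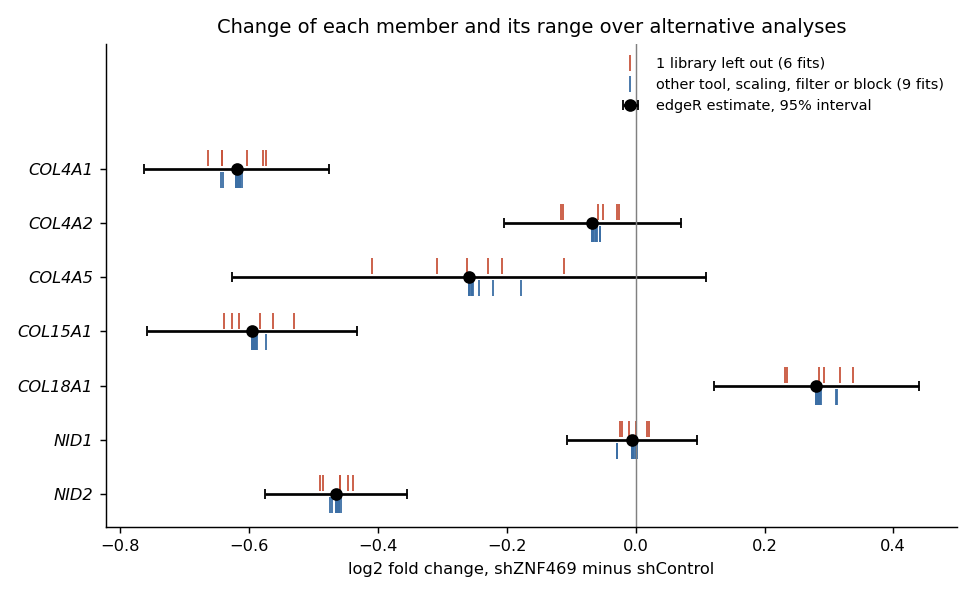
Log2 fold change (shZNF469 minus shControl) of each gene from the edgeR fit with its 95% interval (black), with ticks for the 6 fits that leave out 1 library (red) and for the 9 fits with another tool, scaling, filter or block (blue). The intervals of COL4A1, COL15A1, NID2 and COL18A1 do not include 0, and those of COL4A2, COL4A5 and NID1 do.

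Ratios between genes within a library do not depend on how libraries are scaled. The ratio of COL4A1 to COL4A2 counts was 0.439, 0.439 and 0.441 with the control hairpin and 0.290, 0.313 and 0.297 after knockdown. The mean went from 0.440 ± 0.000856 to 0.300 ± 0.0119 (SD, n = 3), a 1.47-fold fall of the ratio without overlap. On the TPM scale, which corrects for length, COL4A1 stood at 0.427 ± 0.00253 of COL4A2 in the controls and at 0.284 ± 0.0171 in the knockdown.

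The ratio of NID2 to NID1 counts was 0.564, 0.563 and 0.562 with the control hairpin and 0.414, 0.403 and 0.411 after knockdown. It fell 1.38-fold, and the range within either group was at most 0.04 on the log2 scale. The ratio of COL15A1 to COL18A1 counts fell most of the 5 pairs, by 1.83-fold, from 0.317, 0.331 and 0.335 to 0.177, 0.179 and 0.179. Ratios with COL4A5 were wide. COL4A5 to COL4A1 went from 0.0150 ± 0.00228 to 0.0195 ± 0.00177 without overlap, and COL4A5 to COL4A2 from 0.00661 ± 0.000991 to 0.00585 ± 0.000681 with overlap.

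Each ratio was tested by an exact two-sided permutation of the 6 libraries, where 3 against 3 cannot give a p under 0.1. The exact permutation p was 0.1 for 8 of the 9 ratios computed (adjusted p = 0.113 over the 9) and 0.4 for COL4A5 to COL4A2. None of them could pass, and the separation of the libraries is given as a measurement.

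**Figure D4:**
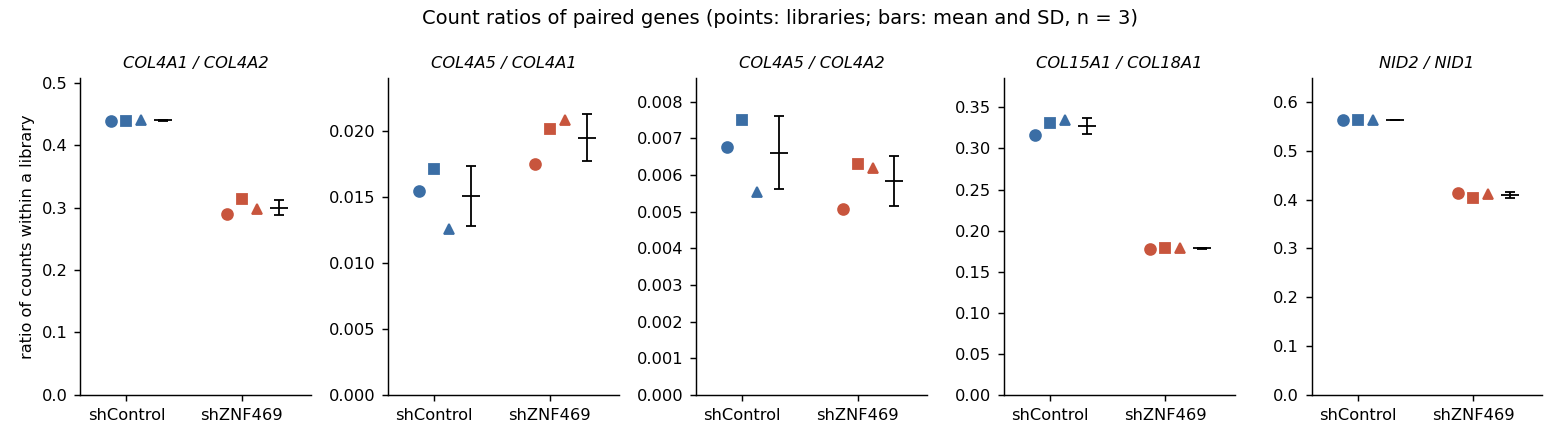
Ratio of counts of paired genes within each library (vertical axes from 0), with shControl in blue, shZNF469 in red, symbols for the replicate number and bars for mean and SD (n = 3). COL4A1 to COL4A2, NID2 to NID1 and COL15A1 to COL18A1 are lower in each knockdown library, and the ratios with COL4A5 are spread widely.

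The remaining 4 ratios set these genes against type I collagen and laminin. COL1A1, for the main chain of skin collagen, was itself 3.37-fold lower, and the ratio of COL4A1 to COL1A1 counts rose from 0.0317 ± 0.00131 to 0.0696 ± 0.00507, a 2.19-fold rise without overlap. Against LAMC1, the laminin gamma-1 chain to which nidogens bind, COL4A1 went from 0.497 ± 0.0213 to 0.314 ± 0.00762 and NID2 from 0.267 ± 0.00594 to 0.188 ± 0.00476. NID1 to LAMC1 differed by -0.04 on the log2 scale, with groups that only just did not overlap, at 0.465, 0.486 and 0.472 with the control hairpin and 0.464, 0.454 and 0.462 after knockdown.

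By correlation across the 6 libraries of both groups, COL4A1 ranked nearer to NID2 and COL15A1 than to its own partner chain. Among 9492 genes with a symbol and a mean of at least 10 CPM, ranked by Pearson's r of log2 CPM with COL4A1, NID2 was 10th (r = 0.994), COL15A1 51st (r = 0.987) and COL4A2 2330th (r = 0.600). Among the 3 genes most like COL4A1 were ARL2BP (r = 0.9979) and COL3A1 (r = 0.9975), and COL3A1 was also among the 3 most like NID2 (r = 0.9985). For COL15A1 they were CHPF2 (r = 0.9983), ZNF469 itself (r = 0.9965) and COL5A1 (r = 0.9964). NID1 was most like LPIN2 (r = 0.974), COL6A3 and GALT, COL4A2 most like RERE (r = 0.993), RAD54L2 and CKAP4, COL4A5 most like ZNF354A (r = 0.994) and RINT1, and COL18A1 most like CHD2 (r = 0.992), BCL9L and ZNF446. These values describe 6 libraries in 2 groups, so genes whose groups separate in the same direction score high. They do not describe how genes vary within a group. The ratio of COL4A1 to COL4A2 counts was 0.439, 0.439 and 0.441 within the controls and 0.290, 0.313 and 0.297 within the knockdown.

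Laminin chains form the other network of the sheet. Of 12 listed, 10 were tested, and 2 were higher and 0 lower, with a median log2 fold change of 0.13. For this list and those below, the shares over all genes tested were 4.56% higher and 5.34% lower. LAMB1, the beta-1 chain, went from 826 ± 23.5 to 996 ± 26.6 CPM (1.20-fold higher, edgeR adjusted p = 0.00933) and LAMA3 from 125 ± 4.42 to 156 ± 5.60 CPM (1.25-fold higher, adjusted p = 0.0123). LAMA4, the alpha chain of vessels and mesenchyme, was at 738 ± 7.46 and 813 ± 10.7 CPM (edgeR adjusted p = 0.0551), and LAMC1 at 1326 ± 24.2 and 1362 ± 46.2 CPM (adjusted p = 0.633). No laminin chain passed without shControl replicate 1 or without shZNF469 replicate 1, and 1 passed without shControl replicate 3. Calls over all genes fell in these fits too, with 215, 204 and 267 genes higher against 745 with all libraries. Without 1 library, 204 to 769 genes were higher and 333 to 854 lower, beside which the leave-out counts of every list are to be read.

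Among proteoglycans and linkers of the basement membrane, 2 of 12 tested were higher and 2 lower (median log2 fold change 0.10). Over all genes tested the shares were 4.56% and 5.34%. SPARC, a collagen-binding glycoprotein that also binds type IV collagen, was 2.47-fold lower and TINAGL1 1.31-fold lower, while the fibulin genes FBLN1 and FBLN2 were 1.20-fold and 1.21-fold higher. HSPG2, which encodes the heparan sulfate proteoglycan perlecan, was at 340 ± 22.3 and 351 ± 21.4 CPM (edgeR adjusted p = 0.757). With shControl replicate 1, 2 or 3 or shZNF469 replicate 1 left out, 0 of this list were higher and 1 lower. Without shZNF469 replicate 2 there were 2 higher and 4 lower, and without shZNF469 replicate 3 there were 0 and 2.

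Genes for folding and cross-linking of collagen, type IV included, fell more often than they rose. Of 21 tested, 8 were lower and 1 higher (median log2 fold change -0.07), against 5.34% lower and 4.56% higher over all genes tested. LOXL2, a lysyl oxidase that cross-links type IV collagen at its 7S end, went from 905 ± 7.86 to 586 ± 32.7 CPM (1.54-fold lower, edgeR adjusted p = 0.000818). PXDN, the peroxidasin that forms the sulfilimine bond between type IV collagen molecules, was 1.28-fold lower (703 ± 7.91 to 551 ± 19.9 CPM, edgeR adjusted p = 0.00379). The prolyl hydroxylase gene P4HA1 was 2.11-fold lower, and SERPINH1, which encodes a chaperone of collagen folding, was 1.40-fold lower. The number lower was 6 to 8 whichever library was left out, and the number higher was 3 without shZNF469 replicate 2 and 0 without each of the other libraries in turn. The 1 gene higher in the fit of all libraries was CRTAP (1.18-fold), a subunit of the prolyl 3-hydroxylase complex, named after its value was seen.

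Receptors of the basement membrane gave 2 lower and 1 higher of 11 tested (median log2 fold change 0.0049). Over all genes tested, 5.34% were lower and 4.56% higher. The integrin genes ITGA2, for a collagen receptor, and ITGA6, for a laminin receptor, were 2.11-fold and 1.49-fold lower, and DDR1, a collagen-binding receptor kinase, was 1.25-fold higher. DAG1, dystroglycan, did not pass (edgeR adjusted p = 0.0551). Without shZNF469 replicate 2 there were 1 higher and 3 lower receptor genes, without shControl replicate 1 there were 0 and 1, and without each of the other libraries in turn 0 and 2. Of 13 proteases and inhibitors tested, 5 were higher and 2 lower (median log2 fold change 0.10). CTSL, a cathepsin able to release endostatin, was 1.46-fold higher and MMP14, a membrane-bound metalloprotease, 1.28-fold higher. The inhibitor gene TIMP3 was 1.26-fold lower and the cathepsin gene CTSS 1.52-fold higher. Also passing were the inhibitor gene TIMP2 (1.11-fold higher), the metalloprotease gene MMP2 (1.16-fold higher) and the protease gene PLAT (1.31-fold lower), named after their values were seen. Leaving out shControl replicates 1, 2 and 3 and shZNF469 replicate 1 in turn, 2, 3, 2 and 2 of this list were higher and 1 lower, and without shZNF469 replicate 2 there were 6 and 1.

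Of the 8 fibrillar collagen genes tested, 7 were lower and 0 higher, counts that held whichever library was left out; their median over the 6 libraries was -0.63 on the log2 scale. COL1A1 and COL1A2 were 3.37-fold and 1.83-fold lower.

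**Figure D5:**
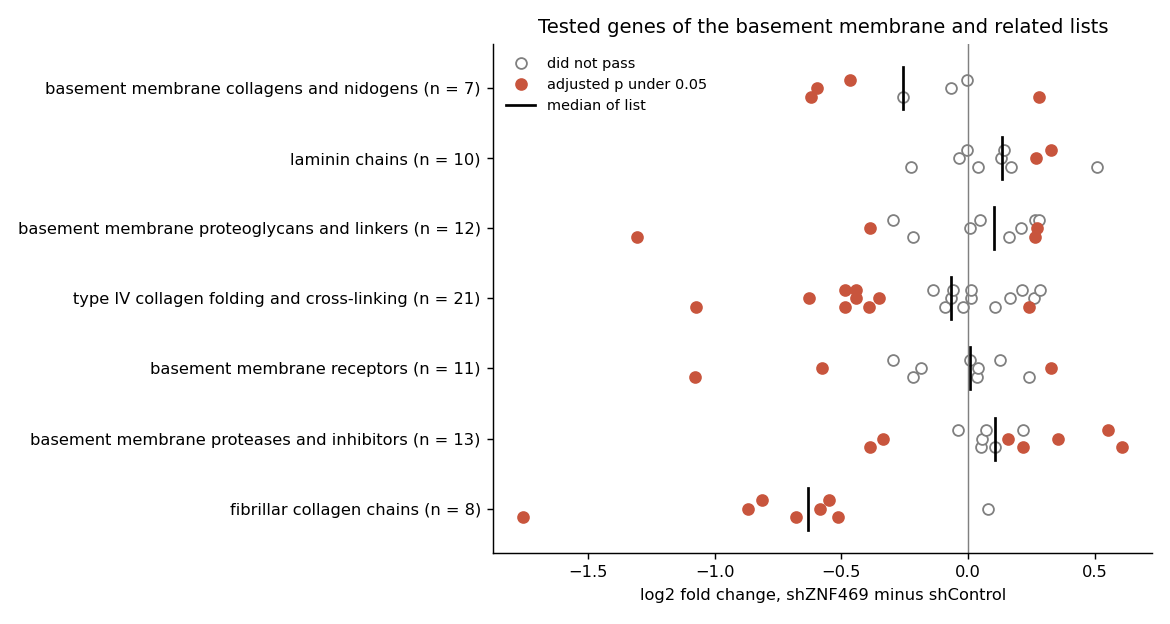
Log2 fold change (shZNF469 minus shControl) of each tested gene in the 7 basement membrane collagens and nidogens and in 6 related lists, filled where the edgeR adjusted p is under 0.05, with a vertical bar at the median of each list. Laminin chains lie mostly right of 0, 7 of the 8 fibrillar collagen chains left of 0, and the 7 genes on both sides.

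Endothelial cells and pericytes are rich in basement membrane collagens, and their markers were measured beside these results. Of 8 endothelial markers 4 had a row in the table, each listed at 0 in at least 1 library, with a summed level of 1.835 to 4.903 CPM with the control hairpin and 1.283 to 4.514 CPM after knockdown. Pericyte and smooth muscle markers (7 of 8 with a row) summed to 322.1 to 348.2 in the controls and 307.9 to 345.6 in the knockdown. MCAM alone passed in the edgeR fit of all libraries, 1.25-fold lower, a call lost without each control. Of 7 melanocyte markers 2 had a row, and PMEL was 2.01-fold higher. Of 8 keratinocyte markers 2 had a row, and KRT10 was 1.42-fold lower, a call lost without shZNF469 replicate 1 and without shControl replicate 2 or 3. Schwann cell markers (2 of 6 with a row) summed to 6.448 to 6.946 in the controls and 5.771 to 5.881 in the knockdown. Immune markers (3 of 8) summed to 123.5 to 147.4 and 145.7 to 186.6, and no marker of either list passed in the edgeR fit of all libraries. Without shZNF469 replicate 2, 1 immune marker was called higher. Among the immune markers, CD68 was at 135 ± 13.5 and 170 ± 25.7 CPM and CD14 at 0.84 ± 0.365 and 0.83 ± 0.154 CPM. PTPRC, CD3E, MS4A1, LYZ and CD163 had no row. The part of the pericyte, melanocyte, keratinocyte and immune markers in the results above was not tested.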

How the data were processed

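Libraries were built from column-purified total RNA with a NEBNext Ultra kit, per the labels' protocols. The submitters' processing notes name HISAT2, StringTie and GRCh38.p14. Annotation release, strand setting and filters were not given in the sources used here. The deposited table holds a whole-number read count per gene and library and the TPM computed by the authors.

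The 7 genes and all lists were chosen with earlier results of these data known. From the counts, genes were kept by filterByExpr (minimum count 10), scaled by TMM, and the groups (3 libraries each) were compared with the quasi-likelihood F-test of edgeR 4.0.16 in R 4.3.3, with Benjamini-Hochberg adjustment over 16353 genes and a threshold of 0.05. An SE is the estimate divided by the root of F. Count ratios were tested by exact permutation. Alternatives were DESeq2 1.42.0, other scalings and filters, limma 3.58.1 on log2(TPM + 1) and log2(TPM + 0.1) for genes with a mean TPM of at least 1, the replicate number as a block, and leaving out each library. Named genes were the 7, ZNF469, fixed partners, the lowest p-values of each list (up to 4 genes), and the 3 genes most like each of the 7, of which some are not reported here. RTRAF and SLC19A1 were named for their overlap, after their values were seen. The lowest TPM above 0 was 0.333 to 0.456 per library. Whether lower values were set to 0 was not tested, so a count of 0 is given only as listed. Protein sequences were not used here.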

Additional observations from a re-analysis of the deposited data

How the results depend on the processing

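Over the 15 alternative fits, the falls of COL4A1 (log2 fold change -0.66 to -0.57), COL15A1 (-0.64 to -0.53) and NID2 (-0.49 to -0.44) kept their direction and passed, and COL4A2 and COL4A5 did not pass in any. The rise of COL18A1 was called by DESeq2, with DESeq2 size factors, with upper-quartile scaling, with at least 1 CPM in all libraries and with the replicate block. It was not called on library totals alone (0.29, adjusted p = 0.0589), with no low-count filter (0.28, adjusted p = 0.0505), by limma on log2(TPM + 1) (0.31, adjusted p = 0.113) or log2(TPM + 0.1) (0.31, adjusted p = 0.119), or without any 1 library (0.23 to 0.34). The cause was not tested. The estimate for NID1, near 0, changed sign on library totals alone (0.0026) and among the fits without 1 library (-0.024 to 0.020), and it passed in none.

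The 745 genes called higher and 874 lower became 1622 and 1624 with DESeq2, 248 and 558 by limma on log2(TPM + 1), 233 and 529 on log2(TPM + 0.1), and 204 to 769 and 333 to 854 without 1 library. The cause was not tested. DESeq2 called 11.2% of its 14431 genes higher and 11.3% lower. It called 4 laminin chains higher and 1 lower, 5 linkers higher and 4 lower, and 4 folding genes higher and 8 lower. Receptors gave 1 higher and 4 lower with DESeq2, and proteases and inhibitors 6 and 2. With DESeq2, 5 of the 10 fibroblast markers were higher and 3 lower. Of the pericyte and smooth muscle markers, it called 1 higher and 3 lower, and 1 immune marker was higher. The replicate block gave 4 fibroblast markers higher and 3 lower. Both limma fits on TPM called 0 laminin chains, linkers, folding genes and receptors higher. In both, 0 laminin chains, 2 linkers, 7 folding genes and 1 receptor were lower, and 2 proteases and inhibitors were higher and 1 lower.

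The replicate numbers gave no clear sign of pairing, and 3 libraries per group cannot exclude it. Deviations of same-numbered libraries correlated at -0.00713, -0.107 and 0.210, and 1 of 3 pairs was the best match in both directions. Those of differently numbered libraries correlated at -0.203 to 0.195. With the replicate block, 592 genes were higher and 736 lower, the same 4 of the 7 genes were called (adjusted p = 0.00460 for COL4A1, 0.0132 for COL15A1, 0.0449 for COL18A1 and 0.00835 for NID2), and the ratio of COL4A1 to COL4A2 changed by -0.55 on the log2 scale (exact sign-flip permutation p = 0.25, the smallest that 3 pairs allow). The mean log2 difference of each of the 9 ratios kept its direction on TPM and without any 1 library. Within same-numbered pairs, COL4A5 to COL4A2 fell in 2 and rose in the third, and the other 8 ratios each moved one way in all 3. COL4A5 had the fewest counts of the 7 (292 to 555), and its control SD was 2.01 on a mean of 9.95 CPM.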
